A study of Mus musculus with 12 samples.

Results

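The 31 genes described here encode complement and coagulation proteins, most of which circulate in plasma and are made mainly by the liver. They were chosen by name and grouped by role: 5 extrinsic and common clotting factors, 5 intrinsic and contact factors, 4 circulating anticoagulants, 3 proteins of fibrinolysis, 5 proteins of the lectin pathway and its next step, 6 of the terminal complement pathway and 3 complement regulators. They were read in livers of 12 male mice, 7 weeks old, with 1 array per mouse and 3 mice in each of 4 groups: Akp3-/- mice given IIAEK (KO IIAEK), Akp3-/- mice given vehicle (KO vehicle), wild-type mice given IIAEK (WT IIAEK) and wild-type mice given vehicle (WT vehicle). Akp3 encodes an intestinal alkaline phosphatase of the gut brush border, and IIAEK is a short peptide named by its amino acids, described in the labels as lowering cholesterol. IIAEK was given by mouth at 600 mg/kg per day for 14 days, vehicle was 5 g/L carboxymethylcellulose sodium, and all mice were fasted for 8 h. The strain and the way the Akp3 allele was made are not given in the sources used here.

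Clotting runs through a chain of serine proteases, each cleaved to its active form by the one before it, that ends in thrombin and a fibrin clot. Complement is another chain of plasma proteins, started on microbes by antibody, by lectins that bind sugars or by spontaneous cleavage, and it ends in a pore assembled from its terminal components. Hepatocytes are the main source of both sets of proteins, and inhibitors and regulators from the same cells hold the chains in check.

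All 31 genes were well above background on 12 of 12 arrays, and they are 31 of the 26405 genes tested and of the 45616 genes on the array. Levels are log2 signals relative to the 75th percentile of the array, so a level below 0 is dimmer than that percentile, and a level of one gene cannot be set against that of another because their probes differ. That percentile lay between 314.6 and 529.4 signal units, and an array had 56.8% to 61.9% of its probes well above background. With 3 arrays a group, their number sets the precision. Both probes of Akp3 were above background on 0 of 12 arrays, so the genotype labels could not be checked in this tissue.

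The arrays did not separate into the 4 groups. On the first principal component of all genes tested, which carried 55.4% of the variance, 4 vehicle arrays (KO vehicle 1 and 3 and WT vehicle 2 and 3, at 74.1 to 88.1) stood apart from the other 8 (-57.3 to -11.3), among them KO vehicle 2 and WT vehicle 1. Pancreas transcripts had a median log2 level of 2.90 above their 12-array mean on WT vehicle 1, and small intestine transcripts stood at 1.30, 3.74 and 1.07 above theirs on WT vehicle 1, 2 and 3. Replicate 1 of each group was on slide 1 and replicates 2 and 3 on slide 2, each with its own scan day. Every comparison below that uses vehicle mice therefore rests on arrays that differ from each other.

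Most of the 31 genes had higher levels in IIAEK livers than in vehicle livers in both genotypes, and for most of them the IIAEK and vehicle mice overlapped. In knockout livers 29 of 31 were higher, with a median log2 difference of 0.37 and a range of -0.19 to 0.99, where the median over all genes tested was 0.04 and 55.7% were higher. In wild-type livers 26 of 31 were higher, with a median of 0.42 and a range of -0.09 to 1.01, where the median over all genes was 0.05 and 55.2% were higher. In neither genotype did any member pass an adjusted p of 0.05 in limma, a linear model fitted to all genes and adjusted over all of them (Benjamini-Hochberg). The smallest adjusted p of a member was 0.664 in knockout and 0.393 in wild type, and the test called 0% of all genes in knockout and 0.00379% (1 gene, no member) in wild type.

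The IIAEK mice were above all vehicle mice of their genotype for 3 members in knockout (F7, Plg and Mbl2), as for 8.77% of all genes, and for 3 in wild type (Mbl1, Mbl2 and Cpn1), as for 7.26%. Before adjustment, 2 members had a limma p under 0.05 in knockout (Mbl2 and Plg), both higher with IIAEK, as had 3.62% of all genes. In wild type 4 members did so (F7, Mbl1, Mbl2 and Cpn1), as had 6.02% of all genes, and 0 members were lower at that p in either genotype (2.67% of all genes in knockout and 6.63% in wild type). Averaged over genotypes, 29 of 31 members were higher, with a median of 0.38 against 0.05 over all genes, of which 56.1% were higher. In that average 9 members had an unadjusted p under 0.05 (F7, F10, Proc, Plg, Mbl1, Mbl2, Masp2, C8g and Cpn1), as had 11.8% of all genes in that direction. The smallest adjusted p of a member was 0.181, 0 members and 0% of all genes were called, and 22.8% of all genes had an unadjusted p under 0.05 in either direction.

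**Figure D1:**
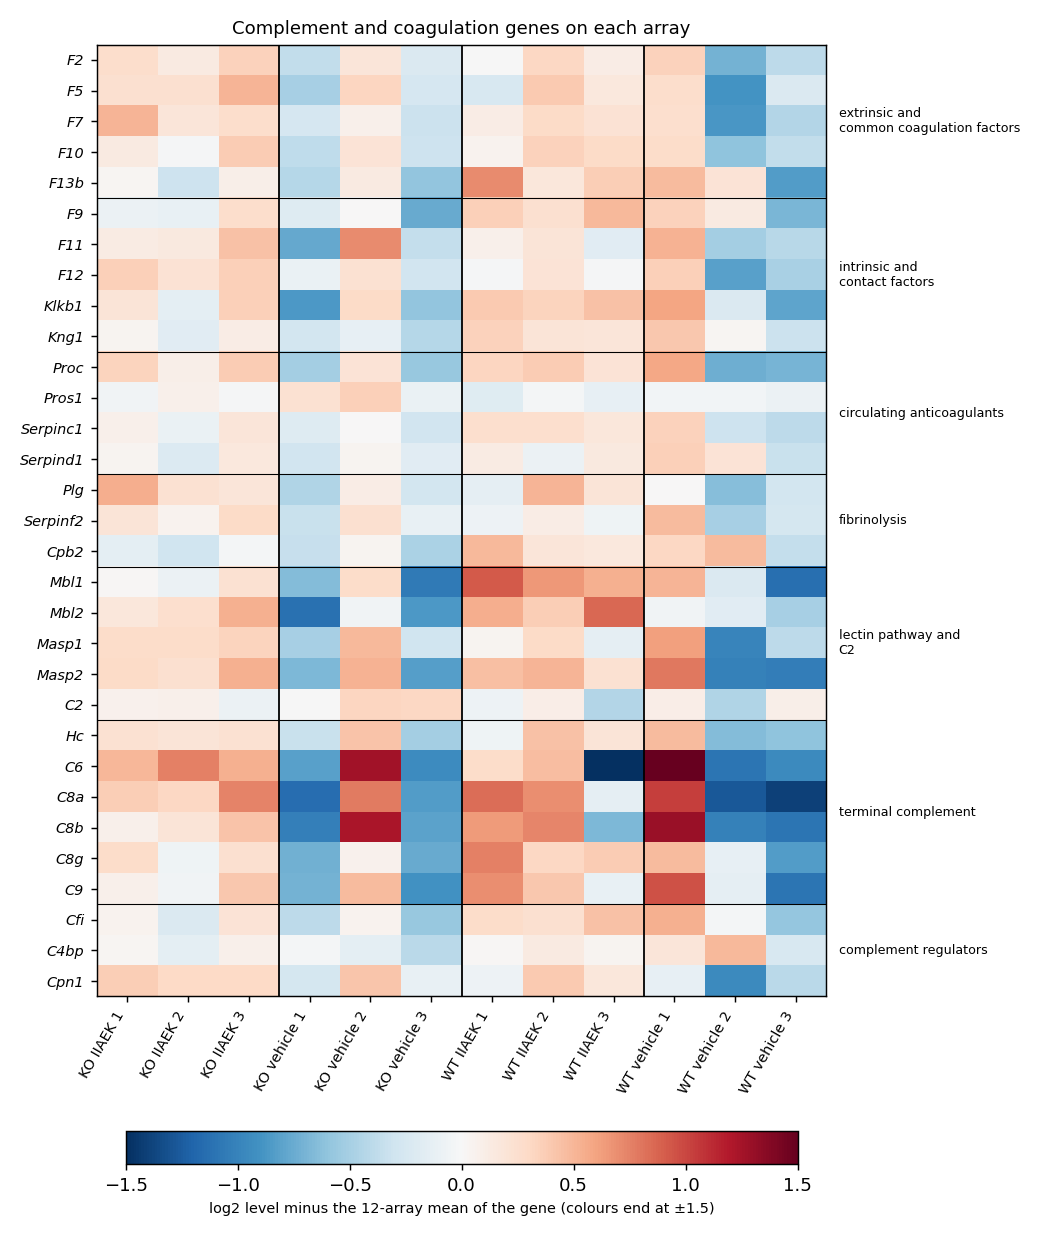
Level of each of the 31 genes (rows, grouped by role) on each of the 12 arrays (columns, grouped as KO IIAEK, KO vehicle, WT IIAEK and WT vehicle), as log2 minus the 12-array mean of the gene, red above and blue below it. KO vehicle 1 and 3 and WT vehicle 2 and 3 are mostly blue, while KO vehicle 2 and WT vehicle 1 are mostly red like the IIAEK arrays.

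Most of the 31 genes moved together from array to array within the vehicle groups. The median over the members of the log2 level minus the gene's 12-array mean was 0.17, 0.07 and 0.28 on the KO IIAEK arrays, -0.40, 0.23 and -0.43 on the KO vehicle arrays, 0.25, 0.31 and 0.17 on the WT IIAEK arrays and 0.41, -0.50 and -0.45 on the WT vehicle arrays. The 6 IIAEK arrays were all above 0, and so were KO vehicle 2 and WT vehicle 1. WT vehicle 1 held the highest level of 14 members, and WT vehicle 2 and WT vehicle 3 held the lowest level of 12 and 10. For 19 of 31 members all 4 arrays that stood apart were lower than all of the other 8, a pattern that 12.8% of all genes showed. The opposite pattern held for 0 of 31 members and 10.3% of all genes. The 19 genes were 5 of the 6 terminal components (all but C6), 4 of the 5 lectin pathway genes (all but C2), 3 of 5 extrinsic and common factors, 3 of 5 intrinsic and contact factors, 2 of 4 anticoagulants, 2 of 3 fibrinolysis genes and 0 of 3 complement regulators.

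These 4 arrays were the low vehicle arrays for most members, so leaving them out had to shrink the difference between IIAEK and vehicle. That leaves 1 vehicle array per genotype, which cannot show how vehicle mice vary. The member median was then -0.058 in knockout (12 higher, 19 lower) and -0.20 in wild type (6 higher, 25 lower). In wild type the sign also differed between slides: on slide 1, with 1 array per group, the median was -0.20 (7 higher, 24 lower), and on slide 2 it was 0.76 (29 higher, 2 lower). In knockout it was 0.64 on slide 1 (30 higher, 1 lower) and 0.26 on slide 2 (29 higher, 2 lower). In whole liver, fewer cells of a type and less RNA per cell cannot be told apart.

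The 5 extrinsic and common factors are prothrombin (F2), its cofactor factor V (F5), factor VII (F7), which starts clotting with tissue factor, factor X (F10), which cleaves prothrombin, and the carrier subunit of the fibrin-crosslinking factor XIII (F13b). All 5 were higher with IIAEK in both genotypes, by log2 differences of 0.23 to 0.49 in knockout and 0.39 to 0.55 in wild type. F7 had levels of 2.73, 2.39 and 2.47 in KO IIAEK mice, 1.96, 2.29 and 1.89 in KO vehicle mice, 2.32, 2.50 and 2.42 in WT IIAEK mice and 2.47, 1.35 and 1.77 in WT vehicle mice. Its KO IIAEK mice were above all KO vehicle mice, and its WT IIAEK mice overlapped the WT vehicle mice because WT vehicle 1 was high. Its log2 difference was 0.49 (SE 0.25) in knockout and 0.55 (SE 0.25) in wild type (limma adjusted p = 0.664 and 0.393). F7 and F10 are neighbours on chromosome 8 with 0 annotated genes between them, and F10 stood at 0.33 (SE 0.24) in knockout and 0.46 (SE 0.24) in wild type.

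Among the 5 intrinsic and contact factors are the proteases F9, F11 and F12, plasma prekallikrein (Klkb1) and kininogen (Kng1), the carrier of prekallikrein and source of bradykinin. All 5 were higher with IIAEK in both genotypes, by 0.27 to 0.52 in knockout and 0.17 to 0.53 in wild type, and 0 had an unadjusted p under 0.05. F12, which starts contact activation, had levels of 6.79, 6.64 and 6.79 in KO IIAEK mice, 6.33, 6.66 and 6.14 in KO vehicle mice, 6.41, 6.63 and 6.41 in WT IIAEK mice and 6.78, 5.61 and 5.94 in WT vehicle mice. Apart from WT vehicle 1, the wild-type IIAEK mice were above their vehicle mice, and KO IIAEK 2 lay just below KO vehicle 2. F11 and Klkb1 are also neighbours on chromosome 8 with 0 genes between them. Klkb1 was higher by 0.52 (SE 0.35) in knockout and 0.53 (SE 0.35) in wild type, and F11 by 0.37 (SE 0.36) and 0.17 (SE 0.36). Kng1 had levels of 9.16, 8.96 and 9.24 in KO IIAEK mice, 8.85, 9.002 and 8.70 in KO vehicle mice, 9.47, 9.32 and 9.31 in WT IIAEK mice and 9.53, 9.15 and 8.80 in WT vehicle mice, and both IIAEK groups overlapped their vehicle groups. A further Kng1 probe, for a different transcript, gave larger differences (0.60 in knockout and 0.86 in wild type) than the probe used (0.27 and 0.21), and mouse Kng1 has a near-identical copy, Kng2, so its values are uncertain.

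The 4 anticoagulants did not share a direction. Protein C (Proc), which when activated destroys factors V and VIII, was higher by 0.56 (SE 0.33) in knockout and 0.58 (SE 0.33) in wild type, and antithrombin (Serpinc1), the main inhibitor of thrombin and factor X, by 0.21 (SE 0.19) and 0.35 (SE 0.19). Heparin cofactor II (Serpind1), another thrombin inhibitor, stood at 0.14 (SE 0.19) in knockout and -0.02 (SE 0.19) in wild type. Protein S (Pros1), the cofactor of activated protein C, which endothelial cells make too, was lower in both genotypes. Its levels were 4.71, 4.84 and 4.75 in KO IIAEK mice, 5.00, 5.13 and 4.67 in KO vehicle mice, 4.59, 4.74 and 4.65 in WT IIAEK mice and 4.72, 4.72 and 4.68 in WT vehicle mice. The groups overlapped in both genotypes and WT vehicle mice differed little from each other, unlike for most members. The Pros1 difference was -0.16 (SE 0.14) in knockout and -0.05 (SE 0.14) in wild type, where its other probe gave 0.12. Of the 6 members that need vitamin K for their activity (F2, F7, F9, F10, Proc and Pros1), Pros1 was the one that was not higher with IIAEK in either genotype.

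Fibrinolysis dissolves the clot, and its 3 members are plasminogen (Plg), the precursor of plasmin, alpha2-antiplasmin (Serpinf2), which blocks plasmin, and Cpb2 (TAFI), which removes the sites on fibrin that plasminogen binds. All 3 were higher with IIAEK, by 0.10 to 0.52 in knockout and 0.09 to 0.50 in wild type, with Plg at the upper end in both. Plg had levels of 2.33, 2.01 and 1.97 in KO IIAEK mice, 1.33, 1.90 and 1.51 in KO vehicle mice, 1.66, 2.30 and 1.98 in WT IIAEK mice and 1.79, 1.15 and 1.51 in WT vehicle mice. All KO IIAEK mice were above all KO vehicle mice, while WT IIAEK 1 lay below WT vehicle 1. The Plg difference was 0.52 (SE 0.23) in knockout (limma adjusted p = 0.664), 0.50 (SE 0.23) in wild type (adjusted p = 0.394) and 0.51 (SE 0.16) averaged over genotypes (adjusted p = 0.181). Without the 4 arrays that stood apart it was 0.20 in knockout and 0.19 in wild type.

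The lectin pathway starts complement when mannose-binding lectins (Mbl1 and Mbl2) dock on microbial sugars and the bound proteases Masp1 and Masp2 cleave C4 and C2. Of these 5 genes 4 were higher with IIAEK in both genotypes and C2 was not. Mbl2, on chromosome 19, had levels of 8.04, 8.12 and 8.40 in KO IIAEK mice, 6.75, 7.82 and 7.01 in KO vehicle mice, 8.42, 8.24 and 8.73 in WT IIAEK mice and 7.82, 7.69 and 7.37 in WT vehicle mice. The 6 IIAEK mice (8.04 to 8.73) were above all 6 vehicle mice (6.75 to 7.82), and Mbl2 was the one member of 31 with no overlap over both genotypes, which 0.398% of all genes showed in that direction. The log2 difference was 0.99 (SE 0.26) in knockout (a 1.99-fold higher signal, limma adjusted p = 0.664) and 0.83 (SE 0.26) in wild type (1.78-fold, adjusted p = 0.393). Averaged over genotypes it was 0.91 (SE 0.19) (limma adjusted p = 0.181). Within slides the Mbl2 difference was 1.29 on slide 1 and 0.85 on slide 2 in knockout, and 0.60 on slide 1 and 0.95 on slide 2 in wild type. Without the 4 arrays that stood apart it was 0.37 in knockout and 0.64 in wild type.

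Mbl1, the other mannose-binding lectin, lies on chromosome 14 and had levels of 3.67, 3.57 and 3.87 in KO IIAEK mice, 3.00, 3.92 and 2.59 in KO vehicle mice, 4.57, 4.29 and 4.19 in WT IIAEK mice and 4.16, 3.44 and 2.51 in WT vehicle mice. The WT IIAEK mice were above all WT vehicle mice, and KO vehicle 2 was above the KO IIAEK mice. Its difference was 0.53 (SE 0.40) in knockout and 0.98 (SE 0.40) in wild type (limma adjusted p = 0.393). Without the 4 arrays apart the Mbl1 difference was -0.22 in knockout and 0.19 in wild type, each against 1 vehicle array. Masp2 stood at 0.68 (SE 0.47) in knockout and 0.82 (SE 0.47) in wild type, and Masp1 at 0.40 (SE 0.37) and 0.32 (SE 0.37). A further Masp2 probe gave 0.68 and 0.83, and another, for a different transcript, gave 0.35 in knockout and 0.12 in wild type. C2, the protease that the lectin and classical pathways share, had levels of 5.73, 5.73 and 5.56 in KO IIAEK mice, 5.65, 5.98 and 5.97 in KO vehicle mice, 5.58, 5.76 and 5.22 in WT IIAEK mice and 5.76, 5.21 and 5.75 in WT vehicle mice. Its groups overlapped in both genotypes and its difference was -0.19 (SE 0.20) in knockout and -0.05 (SE 0.20) in wild type.

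The terminal components C5 (Hc), C6, C8 and C9 build the membrane attack complex, and C8 is a complex of the products of C8a, C8b and C8g. All 6 genes were higher with IIAEK in knockout (0.36 to 0.87), and 5 of 6 in wild type (up to 1.01), where C6 stood at -0.09. Of the 31 members C6, C8a and C8b had the widest range over the 12 mice (3.05, 2.44 and 2.38 on the log2 scale). C8a had levels of 5.96, 5.90 and 6.34 in KO IIAEK mice, 4.45, 6.38 and 4.75 in KO vehicle mice, 6.44, 6.30 and 5.46 in WT IIAEK mice and 6.64, 4.32 and 4.20 in WT vehicle mice, and C8b had levels of 4.70, 4.82 and 5.05 in KO IIAEK mice, 3.60, 5.85 and 3.83 in KO vehicle mice, 5.26, 5.36 and 3.95 in WT IIAEK mice and 5.92, 3.61 and 3.53 in WT vehicle mice. Both were low on the 4 arrays apart (4.20 to 4.75 for C8a and 3.53 to 3.83 for C8b), WT vehicle 1 held the highest level of both, and KO vehicle 2 was above all KO IIAEK mice in both. C8g had levels of 8.21, 7.87 and 8.17 in KO IIAEK mice, 7.22, 7.99 and 7.18 in KO vehicle mice, 8.68, 8.24 and 8.31 in WT IIAEK mice and 8.40, 7.81 and 7.09 in WT vehicle mice, with the KO vehicle 2 and WT vehicle 1 mice again within the range of the IIAEK mice.

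The C8a difference was 0.87 (SE 0.65) in knockout and 1.01 (SE 0.65) in wild type, the C8b difference 0.43 (SE 0.72) and 0.50 (SE 0.72), and the C8g difference 0.62 (SE 0.32) and 0.64 (SE 0.32). The other C8a probe gave 0.85 in knockout and 0.91 in wild type, and the other C8b probe 0.79 and 0.70. Without the 4 arrays apart, the differences were -0.31 and -0.57 for C8a and -0.996 and -1.06 for C8b, in knockout and in wild type. C6, which joins C5b to start the pore, had levels of 2.27, 2.53 and 2.30 in KO IIAEK mice, 0.95, 3.03 and 0.83 in KO vehicle mice, 2.05, 2.23 and 0.26 in WT IIAEK mice and 3.31, 0.68 and 0.82 in WT vehicle mice. It was low on the 4 arrays apart and on WT IIAEK 3 and high on the other 7, so its groups did not follow the treatment. Its difference was 0.76 (SE 0.79) in knockout and -0.09 (SE 0.79) in wild type. C9, which polymerises into the pore, stood at 0.52 (SE 0.49) and 0.42 (SE 0.49), and Hc at 0.36 (SE 0.32) and 0.45 (SE 0.32).

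C8a and C8b lie next to each other on chromosome 4 with 0 annotated genes between them. Their promoters are shown here with those of Mbl2, whose IIAEK and vehicle mice did not overlap, and Pros1. By the probe used, Pros1 was the anticoagulant that was lower with IIAEK in both genotypes. The sequences are from RefSeq on GRCm38.p6 and run from 250 bases before to 50 after the start of the gene. They are C8a (chr4:104876349-104876648, minus strand), C8b (chr4:104766067-104766366, plus strand), Mbl2 (chr19:30232678-30232977, plus strand) and Pros1 (chr16:62854057-62854356, plus strand). Capitals mark CpG dinucleotides, the sites at which mammalian DNA is methylated.
C8a: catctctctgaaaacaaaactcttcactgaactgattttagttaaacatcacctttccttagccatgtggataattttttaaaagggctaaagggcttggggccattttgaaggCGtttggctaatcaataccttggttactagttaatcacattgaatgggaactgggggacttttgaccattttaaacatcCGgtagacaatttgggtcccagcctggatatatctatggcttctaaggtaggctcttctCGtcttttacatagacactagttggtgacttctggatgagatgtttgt
C8b: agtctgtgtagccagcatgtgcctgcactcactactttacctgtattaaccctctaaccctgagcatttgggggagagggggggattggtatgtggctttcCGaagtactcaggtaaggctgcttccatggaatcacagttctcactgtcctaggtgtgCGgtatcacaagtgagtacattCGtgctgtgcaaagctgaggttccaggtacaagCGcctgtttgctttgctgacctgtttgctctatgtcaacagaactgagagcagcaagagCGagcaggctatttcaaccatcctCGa
Mbl2: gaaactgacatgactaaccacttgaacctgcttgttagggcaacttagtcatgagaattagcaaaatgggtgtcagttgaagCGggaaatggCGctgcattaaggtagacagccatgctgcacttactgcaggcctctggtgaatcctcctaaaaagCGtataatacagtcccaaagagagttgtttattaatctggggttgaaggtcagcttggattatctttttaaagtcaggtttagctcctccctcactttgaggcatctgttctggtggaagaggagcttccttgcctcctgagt
Pros1: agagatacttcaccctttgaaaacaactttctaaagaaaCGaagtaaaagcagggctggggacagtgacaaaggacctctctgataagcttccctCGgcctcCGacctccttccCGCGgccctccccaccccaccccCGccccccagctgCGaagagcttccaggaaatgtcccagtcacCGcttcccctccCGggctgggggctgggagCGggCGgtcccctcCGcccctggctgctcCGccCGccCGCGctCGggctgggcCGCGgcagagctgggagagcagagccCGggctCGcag
The Pros1 window is the one rich in CpG, with 21 CpG dinucleotides and 66.7% G and C, against 3 and 40.0% in C8a, 6 and 50.3% in C8b and 3 and 45.3% in Mbl2. RefSeq gave a promoter for 25 of the 31 members, and their median was 5 CpG and 48.0% G and C, against 7 and 52.7% for the 32851 promoters of the table. On either strand, the C/EBP motif TTNNGCAA was in 6 of the 25 (C9, Cpb2, F11, F9, Klkb1 and Serpinc1), or 24%, against 10.8% of all promoters, the HNF4 motif CAAAGTCCA in 0 against 0.475%, and TATAAA in 2 (Hc and Klkb1), or 8%, against 13.6%. The member values count the first promoter listed for each gene, and the others count every promoter of the table, so the shares are over unlike sets. Matches to different motifs overlapped in 0 of the 25 windows, and a match describes letters, not binding.

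Complement regulators in the list are factor I (Cfi), which degrades C3b and C4b, C4b-binding protein (C4bp), its cofactor, and the catalytic subunit of carboxypeptidase N (Cpn1), which trims anaphylatoxins and kinins. Cpn1, on chromosome 19, had levels of 3.35, 3.27 and 3.28 in KO IIAEK mice, 2.71, 3.39 and 2.87 in KO vehicle mice, 2.90, 3.37 and 3.15 in WT IIAEK mice and 2.85, 2.02 and 2.58 in WT vehicle mice. The WT IIAEK mice were above all WT vehicle mice, narrowly, and KO vehicle 2 was above the KO IIAEK mice. Its difference was 0.31 (SE 0.24) in knockout and 0.66 (SE 0.24) in wild type (limma adjusted p = 0.393). C4bp had levels of 7.12, 6.95 and 7.16 in KO IIAEK mice, 7.06, 6.94 and 6.68 in KO vehicle mice, 7.11, 7.22 and 7.13 in WT IIAEK mice and 7.27, 7.58 and 6.86 in WT vehicle mice, with WT vehicle 2 the highest array, and its groups overlapped in both genotypes. Its difference was 0.18 (SE 0.19) in knockout and -0.08 (SE 0.19) in wild type, and that of Cfi was 0.32 (SE 0.27) and 0.34 (SE 0.27).

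**Figure D2:**
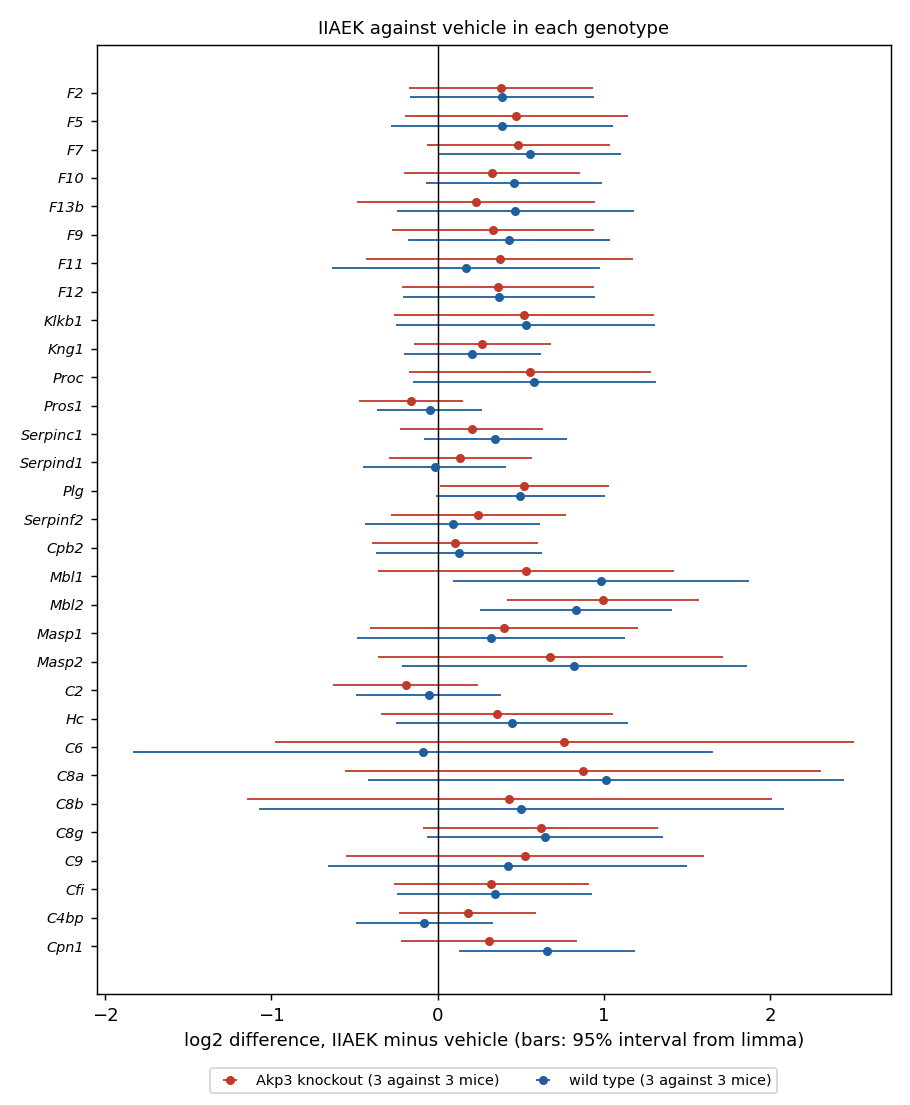
Log2 difference (horizontal axis) between IIAEK and vehicle livers for each of the 31 genes, with Akp3 knockout in red above wild type in blue and bars for the 95% interval from limma (3 against 3 mice). Nearly all points lie right of 0 in both genotypes, and most intervals cross 0.

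**Figure D3:**
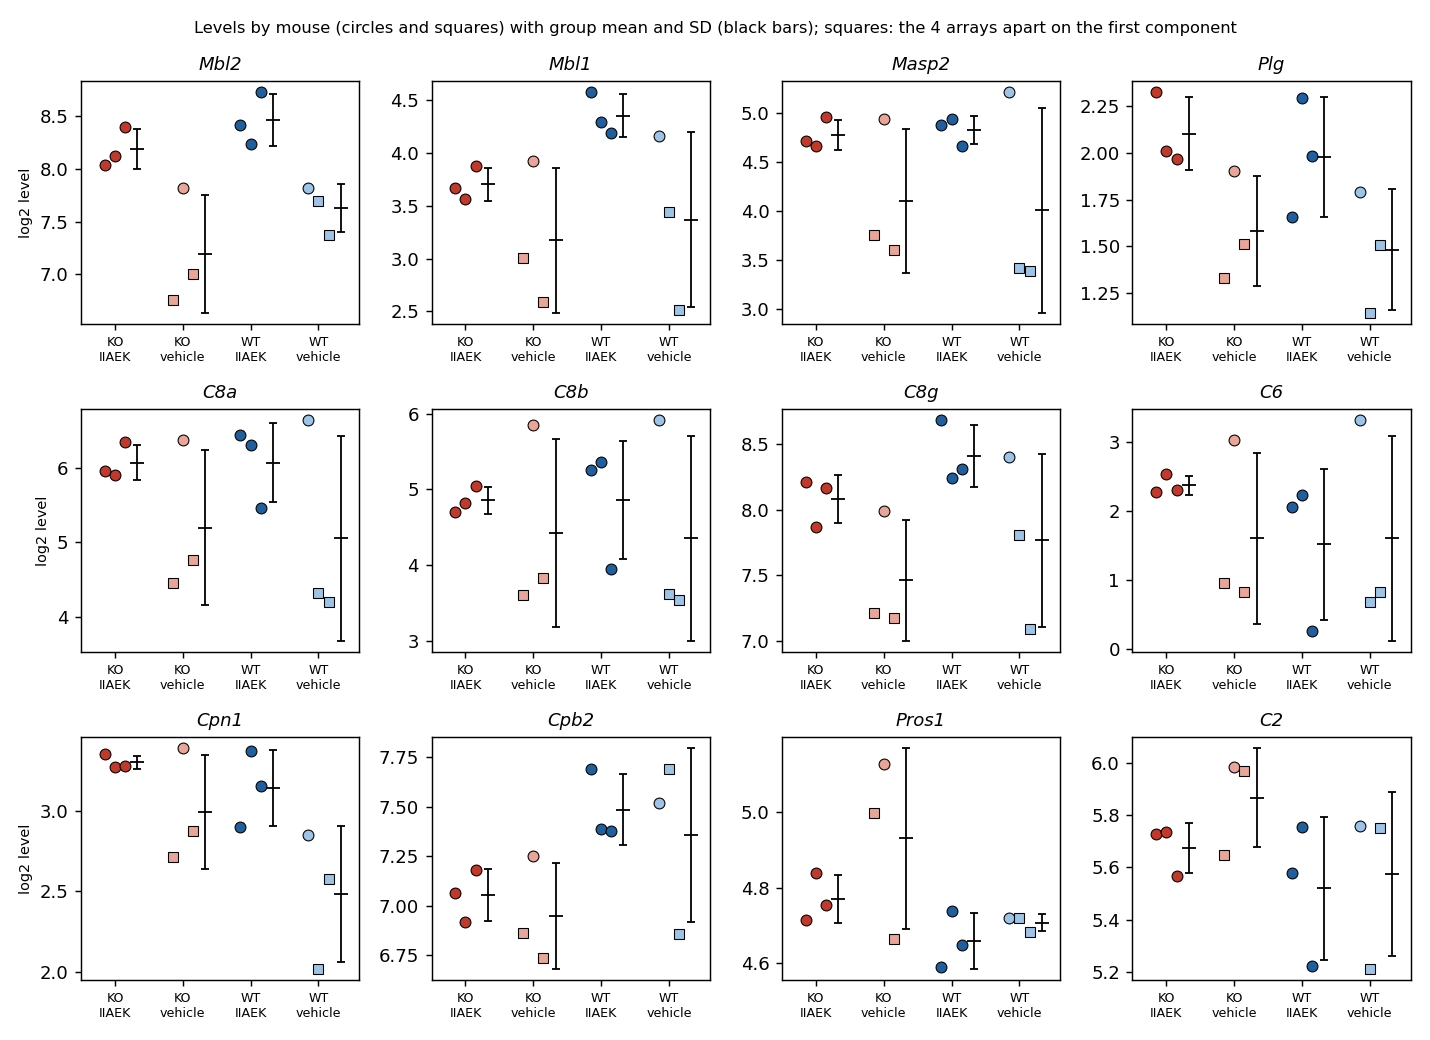
Log2 level (vertical axis, scaled per gene) of 12 of the genes in each mouse of the 4 groups, with black bars for the group mean and SD (n = 3) and squares for the 4 arrays that stood apart on the first component. In Mbl2 every IIAEK mouse lies above every vehicle mouse, whereas in C8a, C8b, C6 and Masp2 the circle among the vehicle mice lies as high as the IIAEK mice.

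The genotype comparisons ask whether the loss of Akp3 moved these genes, and their levels lay on both sides of wild type. Under vehicle 16 of 31 members were higher and 15 lower in knockout, with a median log2 difference of 0.0027 against -0.05 over all genes, of which 43.2% were higher. Under IIAEK 14 were higher and 17 lower, with a median of -0.03 against -0.02 over all genes, of which 47.3% were higher. Limma called 0 members in both comparisons (0.00379% of all genes under vehicle and 0.00757% under IIAEK), and 0 members had an unadjusted p under 0.05 (6.62% and 7.83% of all genes). Under IIAEK, where all 6 arrays lay on one side of the first component, the knockout and wild-type mice did not overlap for 8 members. F12 and C6 were higher in knockout (13% of all genes), and F13b, Kng1, Cpb2, Mbl1, C8g and Cfi were lower (14.6% of all genes). The values with the smallest p were 0.85 (SE 0.79) for C6 and 0.26 (SE 0.26) for F12 among the higher ones and -0.43 (SE 0.23) for Cpb2 and -0.65 (SE 0.40) for Mbl1 among the lower ones.

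Cpb2 was the one member with an unadjusted limma p under 0.05 for the genotype averaged over treatments, as had 9.12% of all genes in that direction. Its levels were 7.06, 6.92 and 7.18 in KO IIAEK mice, 6.86, 7.25 and 6.74 in KO vehicle mice, 7.69, 7.39 and 7.38 in WT IIAEK mice and 7.52, 7.69 and 6.86 in WT vehicle mice. Under IIAEK all knockout mice were below all wild-type mice, and under vehicle WT vehicle 3 lay among the knockout mice. The Cpb2 difference was -0.41 (SE 0.23) under vehicle, -0.43 (SE 0.23) under IIAEK and -0.42 (SE 0.16) averaged over treatments (limma adjusted p = 0.273). It was below 0 on slide 1 (-0.66 under vehicle and -0.63 under IIAEK) and on slide 2 (-0.28 and -0.33). For the other members named by the smallest p, the average over treatments was -0.28 (SE 0.13) for Kng1, 0.33 (SE 0.17) for Cpn1 and 0.17 (SE 0.10) for Pros1. Over treatments 17 members were higher and 14 lower in knockout (median 0.02, against -0.04 over all genes, of which 44.5% were higher), and 0 members and 0.0227% of all genes were called. The sign of that median differed between slides, at -0.49 on slide 1 (4 higher, 27 lower) and 0.21 on slide 2 (21 higher, 10 lower).

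The genotype difference under vehicle turned with the slide. On slide 1 the member median was -0.80 (1 higher, 30 lower), where KO vehicle 1 was one of the arrays apart and WT vehicle 1 was not. On slide 2 it was 0.43 (26 higher, 5 lower), where both WT vehicle arrays and KO vehicle 3 stood apart. Without KO vehicle 2 it was -0.33, and without WT vehicle 1 it was 0.32. Cpn1, the member with the largest positive value under vehicle, stood at 0.51 (SE 0.24) over all arrays (limma adjusted p = 0.737), -0.14 on slide 1 and 0.83 on slide 2. The member with the lowest unadjusted p in the other direction, C4bp, stood at -0.34 (SE 0.19) (limma adjusted p = 0.737).

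The interaction asks whether the response to IIAEK depended on Akp3. The IIAEK difference in knockout minus that in wild type was above 0 for 11 members and below 0 for 20, with a median of -0.02 against 0.01 over all genes, of which 51.1% were above 0. Limma called 0 members and 0% of all genes, the adjusted p of every member was 1, and 0 members had an unadjusted p under 0.05 (1.56% of all genes). For Mbl2 the interaction was 0.16 (SE 0.37) with a 95% interval of -0.66 to 0.98, and for Mbl1 it was -0.45 (SE 0.57) with -1.71 to 0.81. For Cpn1 it was -0.35 (SE 0.34) (-1.10 to 0.40), for C4bp 0.26 (SE 0.26) (-0.32 to 0.85) and for C6 0.85 (SE 1.12) (-1.61 to 3.32). These intervals leave room for differences as large as the IIAEK differences themselves. The median interaction was 0.83 on slide 1 and -0.43 on slide 2.

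Genes of the same pathways outside the 31 members did not share one direction. Of 26 further coagulation and fibrinolysis genes 24 were tested, and 13 were higher and 11 lower with IIAEK in knockout (median 0.05) and 14 higher and 10 lower in wild type (median 0.13). The 3 fibrinogen chains Fga, Fgb and Fgg, which form the clot, were higher by 0.25 to 0.32 in knockout and 0.24 to 0.48 in wild type. Hgfac, an activator of hepatocyte growth factor, had the smallest p in knockout at 0.94 (SE 0.41), and the vitamin K reductase Vkorc1 was among the 2 smallest in wild type at 0.58 (SE 0.21). The plasminogen activators Plau and Plat stood at -1.30 (SE 0.73) and -1.87 (SE 1.26) in knockout and -1.92 (SE 0.73) and -3.09 (SE 1.26) in wild type. Both were high only on the 4 arrays apart (levels of -0.32 to 0.55 for Plau and -0.78 to 0.06 for Plat). KO vehicle 2 and WT vehicle 1 lay near the IIAEK mice of their genotype (-2.29 and -2.28 for Plau, -4.01 and -5.14 for Plat). Limma called 0 of the 24 in both.

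Of 28 further complement genes 27 were tested, and 16 were higher and 11 lower with IIAEK in both genotypes (median 0.15 in knockout and 0.16 in wild type), with 0 called. C3, the central component, stood at 0.18 (SE 0.16) in knockout and 0.04 (SE 0.16) in wild type. C4a and C4b, near-identical copies that probes may not tell apart, stood at 0.62 and 0.60 in knockout and 0.89 and 0.48 in wild type. The 3 C1q chains C1qa, C1qb and C1qc, which macrophages make, were lower by 0.63 to 0.71 in knockout and 0.68 to 0.92 in wild type. The further complement genes with the smallest p in knockout were the ficolin Fcna at -0.70 (SE 0.22) and properdin (Cfp) at -0.87 (SE 0.39). In wild type they were the anaphylatoxin receptor C3ar1 at -1.69 (SE 0.49) and the regulator Cd46 at 0.47 (SE 0.15). Cd46 was dim on every array (levels of -4.42 to -3.64). C3ar1, Cfp and the 3 C1q chains were higher on each of the 4 arrays apart than on any other array. For C3ar1 those 4 stood at -0.82 to -0.52, against -2.43 on KO vehicle 2 and -2.14 on WT vehicle 1.

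Transcription factors of hepatocytes mostly stood higher with IIAEK, as the members did. Of 12 such genes 11 were higher in knockout (median 0.34) and 9 in wild type (median 0.49), and 0 were called. Foxa2, a pioneer factor of liver genes, stood at 0.77 (SE 0.27) in knockout and 1.18 (SE 0.27) in wild type, and Onecut1 (HNF6) at 0.90 (SE 0.31) and 0.69 (SE 0.31). Hnf4a stood at 0.36 (SE 0.31) in knockout and 0.49 (SE 0.31) in wild type, and Cebpa at 0.91 (SE 0.35) and 0.78 (SE 0.35). Their median deviation was below 0 on the 4 arrays apart (-0.62 to -0.24) and above 0 on the other 8 (0.0071 to 0.38).

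By list median, bile duct, Kupffer cell and stellate cell markers stood higher on the 4 arrays apart than on the other 8. The hepatocyte median deviation was below 0 on the 4 arrays apart (-0.43 to -0.10). It was above 0 on the others (up to 0.43) except KO IIAEK 2 (-0.11), which lay just below WT vehicle 2 (-0.10). Endothelial markers did not separate these arrays, with a median deviation of 0.10 on KO vehicle 3. All 14 hepatocyte markers on the array were well above background on every array, as the tissue label gives, and their summed level, relative to the 75th percentile, was 4575 to 5426 in KO IIAEK, 3666 to 5081 in KO vehicle, 5020 to 5812 in WT IIAEK and 3810 to 6969 in WT vehicle mice. With IIAEK 12 of 14 were higher in knockout (median 0.22) and 10 of 14 in wild type (median 0.12). All 7 bile duct markers were lower with IIAEK in both genotypes (median -0.90 in knockout and -0.91 in wild type), and their summed level was 11.05 to 12.3 in KO IIAEK, 11.5 to 31.5 in KO vehicle, 10.03 to 12.15 in WT IIAEK and 9.17 to 62.8 in WT vehicle mice. Each sum in this paragraph weighs the brightest genes most. The bile duct sum was mostly the signal of Spp1, with log2 levels of 3.01, 5.91 and 5.26 in WT vehicle mice. Of 9 Kupffer cell and macrophage markers 9 were lower in knockout (median -0.42) and 8 in wild type (median -0.47), with summed levels of 121 to 212 in KO IIAEK, 162.5 to 399 in KO vehicle, 126.6 to 263.9 in WT IIAEK and 159.8 to 457.8 in WT vehicle mice. Stellate cell markers were lower for 8 of 9 in knockout and 9 of 9 in wild type, with sums of 134 to 194.5 in KO IIAEK, 159.7 to 275.3 in KO vehicle, 121.9 to 156.2 in WT IIAEK and 123.5 to 319.9 in WT vehicle mice. Endothelial markers were higher for 6 of 9 in knockout and 7 of 9 in wild type, with sums of 78.7 to 82.2 in KO IIAEK, 67.6 to 86.1 in KO vehicle, 83.4 to 88.4 in WT IIAEK and 59.0 to 91.3 in WT vehicle mice. None of these markers was called, all Kupffer, stellate and endothelial markers were above background on every array, and their part in the differences of the members was not tested.

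**Figure D4:**
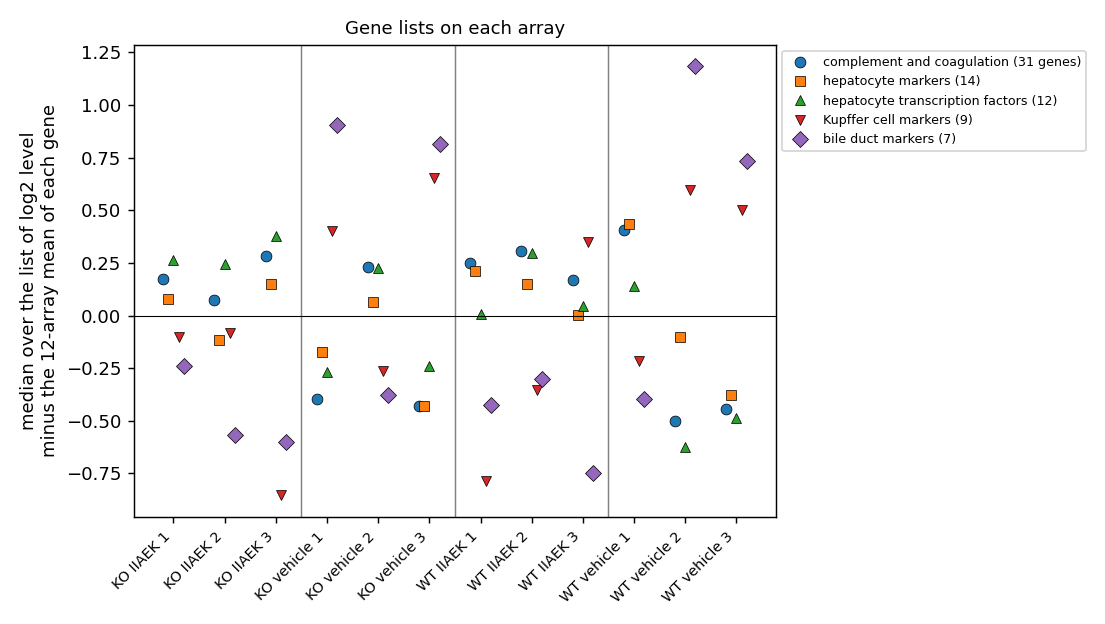
Median over each list of the log2 level minus the gene's 12-array mean (vertical axis) on each of the 12 arrays (horizontal axis), for the 31 complement and coagulation genes, hepatocyte markers, hepatocyte transcription factors, Kupffer cell markers and bile duct markers. On KO vehicle 1 and 3 and WT vehicle 2 and 3 the 31 genes lie below 0 and the bile duct and Kupffer cell markers above it, and on KO vehicle 2 and WT vehicle 1 the order is turned round.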

How the data were processed

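Liver RNA was hybridised to single-colour (Cy3) Agilent mouse arrays, 12 arrays with 3 in each of 4 groups. Per the file headers, the authors' scanner files were written by Agilent Feature Extraction 10.7.3.1 (build mm9), and the processed signal is a background-subtracted intensity per spot, with flags for spots above background, saturated (0) or non-uniform (0 to 7 per array, left out). The deposited series table holds log2 values. Set against the scanner files, its columns were signals scaled to the 75th percentile and centred on each probe's median (Pearson r across probes 1.0). Its column medians were 0.0145, -0.0485 and 0.0527 (KO IIAEK), -0.127, -0.0513 and -0.110 (KO vehicle), 0.154, 0.0668 and 0.0707 (WT IIAEK) and 0.171, -0.0389 and -0.154 (WT vehicle). Which software made it is not given in the sources used here.

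Spots of a probe were averaged (56605 probes), log2 was taken and the array's 75th percentile subtracted. Probes were named by transcript through a RefSeq table of another build, used for names and gene order (32994 probes named). Genes whose brightest probe cleared background in every mouse of some group were tested (26405). The fit was limma 3.58.1 in R 4.3.3 with 1 mean per group (8 residual and 2.73 prior degrees of freedom, two-sided, threshold 0.05). It was tested on simulated data with independent noise for each gene and array. That test cannot show how the fit handles the pattern that these arrays shared on the first component. The 7 comparisons were IIAEK against vehicle in each genotype, knockout against wild type under each treatment, both averages and the interaction. Errors are SE from limma unless called SD. Of the 31 members 25 had 1 probe and 6 several. One label field of the IIAEK mice gives weeks where titles and design give days, and 14 days was used.

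The members, roles and other gene lists were chosen with earlier results of these data known. Levels on every array are given for the 2 members with the smallest p per direction in each comparison and for Mbl1, Mbl2, C8a, C8b and C8g. F7 was added after its values were seen. From the other lists the 2 genes with the smallest p are named, and the fibrinogen chains, C1q chains, C3, C4a, C4b, Plau, Plat, Hnf4a and Cebpa were added after their values were seen. Of the acute phase genes only Lcn2 and Itih4 are named, and Itih4 was added after its values were seen. Some genes of these lists are counted but not reported by name here. Alternatives were normexp background correction (offset 50), quantile normalization, the deposited table, dropping the filter or asking for all 12 arrays, averaging probes, slide and replicate blocks, each slide alone, array weights, only the groups compared, leaving out each array and, added after seeing the data, leaving out the 4 vehicle arrays that stood apart.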

Additional observations from a re-analysis of the deposited data

How the results depend on the processing

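Whether any member was called depended on single vehicle arrays. With IIAEK against vehicle in knockout, array weights called 1 member (Mbl2, limma adjusted p = 0.0463), where 2.48% of all genes were called. Leaving out any 1 array called 0 members in knockout. In wild type, leaving out single arrays called 0 to 10 members, and the 10 (F2, F7, F10, F12, Proc, Serpinc1, Mbl1, Masp2, C8a and Cpn1) came without WT vehicle 1, where 14.9% of all genes were called. Averaged over genotypes, leaving out single arrays called 0 to 16: 16 without WT vehicle 1 (24.9% of all genes) and 4 without KO vehicle 2 (Plg, Mbl1, Mbl2 and Cpn1; 9.86%), and array weights called 18 (28.6%). All of these were higher with IIAEK. Array weights were lowest for WT vehicle 1 (0.198) and KO vehicle 2 (0.372). The other comparisons called 0 members under every alternative.

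Member medians under alternatives were, without the 4 arrays apart, -0.058 in knockout, -0.20 in wild type and -0.11 on average. On slide 2 alone they were 0.76 (IIAEK in wild type), 0.43 (knockout against wild type under vehicle) and -0.43 (interaction). On slide 1 alone, with values only, they were -0.20, -0.80 and 0.83, and the genotype averaged over treatments gave -0.49 on slide 1 and 0.21 on slide 2. The cause was not tested. Leaving out single arrays gave medians of 0.25 to 0.61 (IIAEK in knockout), 0.21 to 0.71 (in wild type), 0.30 to 0.57 (on average), -0.33 to 0.32 (genotype under vehicle), -0.12 to 0.04 (under IIAEK), -0.15 to 0.19 (on average) and -0.34 to 0.19 (interaction). The pooled SD of the member median within a group was 0.322. Cpn1 under vehicle was reversed on slide 1 (-0.14).

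The replicate block called 0 members in every comparison and left the medians as they were (0.37 in knockout, 0.42 in wild type), as did the slide block. The replicate numbers were not treated as pairs: 8 of 18 same-numbered pairs had a correlation over 0.1 (-0.546 to 0.645). Leaving out single arrays gave Mbl2, averaged over genotypes, an adjusted p between 0.0146 and 0.383 in limma.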

Other observations

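Acute phase genes, which hepatocytes switch on in inflammation, did not share one direction with IIAEK. With IIAEK, 6 of 14 were higher and 8 lower in knockout (median log2 difference -0.07), and 4 were higher and 10 lower in wild type (median -0.28), with 0 called by limma. Lcn2 (lipocalin 2), which binds bacterial siderophores, stood at -2.71 (SE 1.56) in knockout and -4.05 (SE 1.56) in wild type. It was high only on the 4 arrays apart (levels of 7.68 to 8.34). KO vehicle 2 (2.805) and WT vehicle 1 (3.21) lay within the range of the IIAEK mice (1.30 to 3.95). Itih4, of the same list, went the other way. Its mean level was 8.41 in KO IIAEK, 7.82 in KO vehicle, 8.24 in WT IIAEK and 7.78 in WT vehicle mice. All KO IIAEK mice were above all KO vehicle mice, while WT vehicle 1 (8.56) was above the WT IIAEK mice. Itih4 was lower on the 4 arrays apart (7.05 to 7.90) than on any other array (7.91 to 8.56). Under vehicle, 12 of 14 acute phase genes were lower in knockout than in wild type (median -0.41).

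Red cell transcripts were lower with IIAEK in knockout for 4 of 5 genes tested (median -1.33), with Hba-a1 at -1.33 (SE 0.45), and in wild type 3 were higher and 2 lower (median 0.10). Platelet transcripts were lower for 3 of 3 in both genotypes, with Pf4, a chemokine of platelet granules, at -0.77 (SE 0.49) in knockout and -1.38 (SE 0.49) in wild type. Pf4 was high only on the 4 arrays apart (levels of 0.69 to 1.42), and KO vehicle 2 (-0.46) and WT vehicle 1 (-0.64) lay within the range of the IIAEK mice. None of these was called by limma.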
